A study of Mus musculus with 13 samples.

Results

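The 3 libraries of N2a genomic DNA that was digested with RNase H before immunoprecipitation were compared with the 9 untreated libraries, within each siRNA treatment. They are the lists that carry the RNase H mark in their name, 3 of 12 lists, and they hold 15763 of 314412 peaks. N2a is a mouse neuroblastoma cell line. The cells had received a scramble siRNA (siScramble), an siRNA against the RNA helicase DDX1 (siDDX1) or an siRNA against EXOSC3, a structural subunit of the RNA exosome (siEXOSC3), with 3 untreated libraries and 1 digested library per treatment. The DNA of all 12 libraries was cut with the same 5 restriction enzymes and pulled down with the S9.6 antibody against RNA:DNA hybrids, a method called DRIP-seq. Per the labels, the eluted hybrids were also treated with RNase H before library construction, in digested and untreated libraries alike.

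An R-loop is a stretch of the genome in which RNA has paired with one DNA strand and left the other strand single. R-loops form behind RNA polymerase II, often near the starts and ends of transcribed genes, and helicases and the RNase H enzymes resolve them. RNase H cuts RNA that is paired with DNA, so a digest before the pulldown is the usual control for the S9.6 antibody, which can also bind other nucleic acids. The comparison asks which peaks are no longer called after the digest and which still are.

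In 12 of 12 lists the treatment in the sample title differed from the treatment in the peak names, in a fixed rotation. Libraries are therefore called labelled siScramble, siDDX1 or siEXOSC3, by title. The RNase H mark is the same in both sources, and the tests below move this mark only among the 4 libraries of a group, so their values are the same under either naming. There are 64 ways to place the mark, and the smallest p-value they can give is 0.015625. Per the study's methods, 3 plates were seeded for each condition as biological replicates. From which plate each digested library came is not given in the sources used here, so the p-values rest on the spread between the 4 libraries of a group. Read totals are unknown here. The local background of most peaks, in reads, could be recovered from each list and was 1.59, 1.17 and 1.12 in the digested libraries labelled siScramble, siDDX1 and siEXOSC3. It was 0.544 to 0.706 in the untreated libraries, except for 1.29 in siDDX1 replicate 1. The part of this difference in the results below was not tested. Of 10 neuroblastoma identity genes, 5 held a peak in 9 of 9 untreated libraries, and of 8 marker genes of other lineages, 0 did in any untreated library.

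Sequences of leading regions are shown first, as examples chosen by rank that need not be typical of the sites that remained under the digest. Each is 120 bases around the highest summit, from the plus strand of NCBIM37 (mm9), with CG dinucleotides in capitals. Peaks of the 12 lists were merged into regions, and regions were ranked by their fold percentile. The first 4 regions called in 12 of 12 lists lie at Zc3h7a and mmu-mir-689-2 (chr16:11144154-11144273, exon), in Filip1l (chr16:57391580-57391699, intron), in Zfp949 (chr9:88453068-88453187, intron) and near Col6a3 (chr1:92658566-92658685, intergenic).
Zc3h7a: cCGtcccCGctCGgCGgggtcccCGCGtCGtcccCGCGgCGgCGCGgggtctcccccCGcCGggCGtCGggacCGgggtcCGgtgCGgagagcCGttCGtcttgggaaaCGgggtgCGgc
Filip1l: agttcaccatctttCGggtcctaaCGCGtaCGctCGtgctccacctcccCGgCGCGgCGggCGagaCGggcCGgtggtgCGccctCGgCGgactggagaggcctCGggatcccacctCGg
Zfp949: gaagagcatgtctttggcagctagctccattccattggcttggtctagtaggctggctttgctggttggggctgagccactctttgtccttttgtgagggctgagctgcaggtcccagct
Col6a3: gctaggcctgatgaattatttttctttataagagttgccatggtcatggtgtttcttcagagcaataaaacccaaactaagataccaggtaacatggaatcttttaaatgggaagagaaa
The windows at Zc3h7a and Filip1l held 23 and 17 CG pairs, and those at Zfp949 and Col6a3 held 0. Regions called in 9 of 9 untreated and 0 of 3 digested lists are shown by Atf4 (chr15:80086810-80086929, exon) and Rpl30 (chr15:34372086-34372205, exon).
Atf4: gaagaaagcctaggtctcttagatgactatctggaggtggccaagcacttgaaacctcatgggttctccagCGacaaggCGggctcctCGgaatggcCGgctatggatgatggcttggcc
Rpl30: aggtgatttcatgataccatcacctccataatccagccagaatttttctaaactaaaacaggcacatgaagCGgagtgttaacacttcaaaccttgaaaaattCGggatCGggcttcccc
Regions called in 3 of 3 digested and 0 of 9 untreated lists are shown by a site far from Cdh5 (chr8:106450190-106450309, intergenic), an intron of 2410003K15Rik (chr6:49032028-49032147) and a site far from SNORA17 (chr8:104514073-104514192, intergenic).
Cdh5 side: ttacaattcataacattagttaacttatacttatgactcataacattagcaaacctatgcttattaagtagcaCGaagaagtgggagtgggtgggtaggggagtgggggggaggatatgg
2410003K15Rik: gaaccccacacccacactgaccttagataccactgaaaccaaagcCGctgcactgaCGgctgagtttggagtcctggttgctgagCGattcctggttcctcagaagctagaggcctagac
SNORA17 side: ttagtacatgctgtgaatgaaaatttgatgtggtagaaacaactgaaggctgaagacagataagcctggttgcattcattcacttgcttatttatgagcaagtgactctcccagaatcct
These windows held 1, 3 and 0 CG pairs.

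After the digest, peaks at genes were many times fewer, while the number of intergenic peaks was not called different. Each peak was given the first class that applied: within 1000 bases of a protein-coding start, within 1000 bases of a long noncoding start, within 1000 bases of a protein-coding end, exon, intron or intergenic. At protein-coding starts, the untreated libraries labelled siScramble held 5281, 7266 and 7508 peaks and the digested one 342. Those labelled siDDX1 held 8060, 4944 and 5831 against 161, and those labelled siEXOSC3 held 6968, 6904 and 8625 against 205. No digested library came near the lowest untreated one. Start peaks were 29.8 times fewer (two-sided exact permutation test, p = 0.015625, adjusted p = 0.0172 over 11 classes). Peaks at protein-coding ends were 32.9 times fewer, in exons 22.5 times, at long noncoding starts 12.3 times and in introns 7.18 times, each with the same p and adjusted p. Intergenic peaks numbered 2156, 3384 and 3787 against 4409 in the group labelled siScramble. They numbered 3683, 1944 and 2446 against 2140 in siDDX1, and 2564, 3167 and 3821 against 1965 in siEXOSC3. The digested library was thus the highest of its group in siScramble, between the untreated ones in siDDX1 and the lowest in siEXOSC3. The mean log2 difference of −0.14 did not pass the exact permutation test (p = 0.641).

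**Figure D1:**
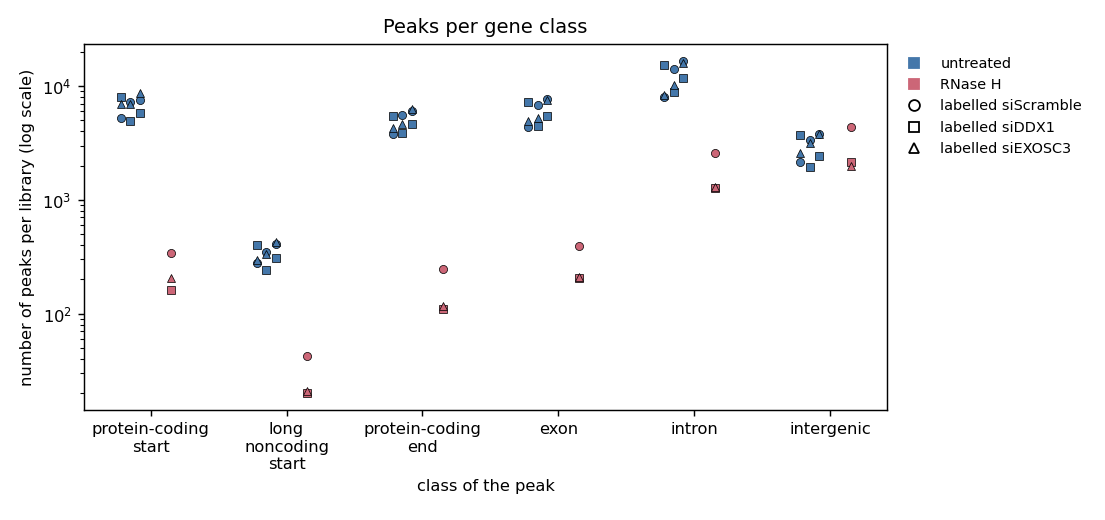
Number of peaks per library (log scale) by gene class. Each symbol is 1 library, blue for the 9 untreated and red for the 3 RNase H digested, and its shape gives the siRNA label. In the intergenic class the digested libraries, at 1965 to 4409 peaks, overlap the untreated ones, and in the other classes they lie below them.

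The makeup of the lists changed accordingly. Protein-coding starts made up 20.8% ± 2.27 of the untreated peaks (SD, n = 9) and 4.58% ± 0.69 of the digested ones (SD, n = 3). This share fell by 15.5, 15.8 and 17.4 percentage points in the groups labelled siScramble, siDDX1 and siEXOSC3 (exact permutation p = 0.015625, adjusted p = 0.0215 over 11 measures). The mean was −16.2 points, and it was −37.2 with every list reduced to the 3811 peaks of lowest q-value and −9.10 for peaks over the start itself, with the same p. The number 3811 is the whole digested list labelled siEXOSC3, while the untreated lists held 23882 to 42571 peaks. With equal numbers, untreated lists are thus cut to their lowest q-values and the digested ones labelled siDDX1 and siEXOSC3 hardly at all. Intergenic sequence made up 9.0% ± 0.70 (SD, n = 9) and 53.7% ± 1.85 (SD, n = 3) of the peaks (exact permutation p = 0.015625, adjusted p = 0.0172). The intronic share, 36.2% ± 2.97 untreated (SD, n = 9) and 32.99% ± 0.82 digested (SD, n = 3), did not pass the exact permutation test (p = 0.125). Peaks over genes of small structural RNAs, such as snoRNAs and miRNAs, numbered 181 to 279 in untreated libraries and 20, 21 and 19 in digested ones. Their share fell by 0.28 percentage points on average (exact permutation p = 0.015625, adjusted p = 0.0215). The difference was −2.90 points with 3811 peaks per list and −0.59 with peaks joined over 1000 bases. Among peaks of at least 10 times the background it was −0.18 and its call ended (exact permutation p = 0.125). That limit falls at unlike places in the digested and untreated lists.

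Few untreated peaks were kept, meaning that they overlapped a peak of the digested library of their group by at least 1 base. The kept share was 1.93% ± 0.46 (SD, n = 9), with group means of 2.30%, 1.63% and 1.87% for siScramble, siDDX1 and siEXOSC3. It was 44.9% when the RNase H mark was moved to an untreated library (exact permutation p = 0.015625, adjusted p = 0.0215). Here and below, a value with the mark moved is averaged over all other libraries of the group, the digested one included. It is therefore not a share between untreated libraries only. With 3811 peaks per list the kept share was 3.87%, against 50.4% with the mark moved. By class, over all peaks, it was 0.885% ± 0.297 at protein-coding ends, 1.20% ± 0.36 in exons, 1.45% ± 0.42 at protein-coding starts and 1.64% ± 0.44 in introns (SD, n = 9 each). Intergenic peaks were kept at 7.48% ± 1.68, peaks over pseudogenes at 7.41% ± 1.88 and peaks over small structural RNA genes at 4.89% ± 0.94 (SD, n = 9 each). A peak over a small RNA gene counts as kept even where the digested peak lies outside that gene. Of small RNA genes with any untreated peak, 3 of 223 snoRNA, 0 of 58 snRNA and 4 of 171 miRNA genes held a digested peak themselves. The counts were 1 of 29 for other small RNA genes and 3 of 12 for rRNA genes. The order of starts and intergenic peaks was the opposite between untreated libraries of a group, where 73.7% of start peaks and 54.5% of intergenic peaks overlapped a peak of another library. The kept share at starts minus that of intergenic peaks was −6.04 percentage points with the digested library as reference. It was 22.6 points when the RNase H mark was moved to an untreated library (exact permutation p = 0.015625, adjusted p = 0.0215). With 3811 peaks per list these values were −14.6 and 10.97 points, with the same p.

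**Figure D2:**
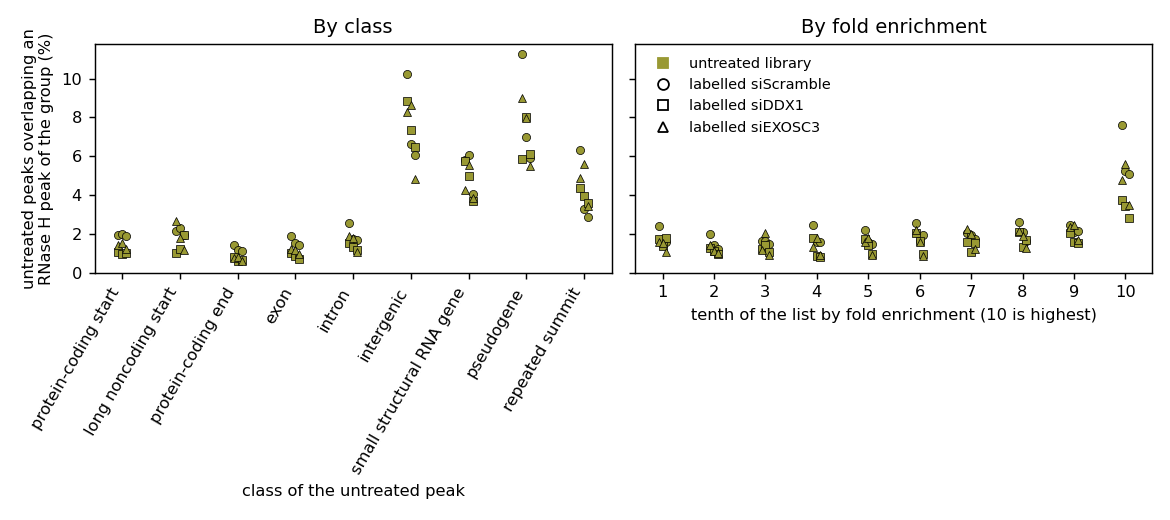
Percent of untreated peaks that overlapped a peak of the RNase H library of their group, by class of the peak and by step of 10% of the list in fold enrichment. Each symbol is 1 of the 9 untreated libraries, and its shape gives the siRNA label. Among classes, intergenic and pseudogene peaks (means 7.48% and 7.41%) are highest. Peaks over small structural RNA genes (4.89%) and those whose summit sequence occurs more than once in the genome (4.25%) follow. The overlap may lie outside the small RNA gene itself. Among steps of fold, the top 10% (4.65%) stands above the rest.

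The loss at genes was also seen gene by gene. Of 22380 protein-coding genes, 36.6% ± 4.09 overlapped a peak in untreated libraries (SD, n = 9) and 7.17% ± 2.65 in digested ones (SD, n = 3). The difference was −29.5 percentage points, and −7.74 with 3811 peaks per list (exact permutation p = 0.015625 for both). Of 6056 genes with a peak in 9 of 9 untreated libraries, 1114 had one in at least 1 digested library, which is 18.4%. A digested peak anywhere in the gene counted here, on an untreated peak or not. These 1114 genes were long, with a median of 51.4 kb against 15.3 kb for the 4942 genes without a digested peak. Genes with a peak in a digested library and in no untreated one had a median of 68.6 kb. Genes for cytosolic ribosomal proteins, which are highly transcribed in growing cells, were covered nearly completely before the digest. Of 85, 91.8% to 94.1% held a peak in each untreated library, and 1.18% ± 2.04 in digested ones (SD, n = 3). Of the 78 with a peak in 9 of 9 untreated libraries, 3 were called after digestion, Rpl11, Rpl13 and Rps18, each only in the library labelled siScramble and each named after its values were seen. Replication-dependent histone genes, which are transcribed in S phase, were covered at 30.8% ± 10.2 (SD, n = 9) and held a peak in none of the 3 digested libraries. snoRNA genes, many of which lie in introns of other genes, went from 10.2% ± 1.40 (SD, n = 9) to 0.150% ± 0.037 (SD, n = 3), and of 104 with a peak in 9 of 9 untreated libraries, 0 kept one. Zfp zinc finger genes, a large family of DNA-binding proteins, went from 48.3% ± 6.40 (SD, n = 9) to 5.84% ± 2.88 (SD, n = 3).

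Of 24 gene classes and lists tested, 16 were covered less after the digest and 2 more. Each of the classes named above passed the exact permutation test with p = 0.015625 and adjusted p = 0.0221. The 2 that were covered more were olfactory and vomeronasal receptors, large chemosensory families whose expression is typical of sensory neurons of the nose. Olfactory receptor genes were covered at 0.00998% ± 0.03 in untreated (SD, n = 9) and 0.299% ± 0.207 in digested libraries (SD, n = 3), or 6 of 1113 genes in any digested library. The difference of 0.290 percentage points was 0.180 with 3811 peaks per list. Vomeronasal receptor genes were covered in 0 untreated libraries and at 1.45% ± 1.47 in digested ones (SD, n = 3), or 10 of 322 genes. Over all protein-coding genes the digested coverage was 7.17% ± 2.65 (SD, n = 3), or 2851 of 22380 genes in any digested library. Both receptor families thus stayed below protein-coding genes as a whole after the digest. With every list reduced to the 3811 peaks of lowest q-value, 13 of the 24 passed, and the calls for pseudogenes, snRNA genes, other small RNA genes, the study's own genes and clustered protocadherins ended (exact permutation test, adjusted p = 0.243, 0.0536, 0.643, 0.581 and 0.316).

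Genes of the R-loop field are given by their calls. The lists of nuclear noncoding RNAs, R-loop resolving enzymes and the study's genes each had exact permutation p = 0.015625 and adjusted p = 0.0221. Of 10 nuclear noncoding RNA genes, 6 held a peak in 9 of 9 untreated libraries and none of these 6 in a digested one. Over all genes with a peak in 9 of 9 untreated libraries, 18.4% had a digested peak. With 6 genes, nothing particular to the list is read from the count. Another gene of the list, 1 of the 10, was called in a digested library and in no untreated one. Gas5, a host of snoRNAs, had a fold enrichment of 32.1 to 57.1 in the untreated libraries, with a median of 49.0. Neat1, the scaffold of paraspeckles, ranged from 18.4 to 40.9 (median 34.6), and Malat1, an abundant nuclear RNA, from 9.32 to 22.5 (median 17.6). Of 19 genes of R-loop resolving enzymes, 19 were called in at least 1 untreated library and 2 of these in a digested one, which is 10.5%. Over all protein-coding genes with a peak in at least 1 untreated library the share was 17.8%, and the coverage after the digest was 7.02% ± 3.04 for this list and 7.17% ± 2.65 for all protein-coding genes (SD, n = 3 each), so nothing particular to the list is read from the count. Dhx9, an RNA helicase, ranged from 21.3 to 59.9 in untreated libraries (median 35.5), and Ddx5, another, from 42.2 to 81.2 (median 56.9), with no digested peak. The median was 8.79 for Rnaseh2a, a subunit of RNase H2, again with no digested peak. The 2 with a digested peak, named after their values were seen, were Brca1, a DNA repair gene, and Top1, the topoisomerase I gene. Brca1 was called in 8 untreated libraries at a median fold of 5.78 and in the 3 digested ones at 14.3, 7.39 and 5.10. Top1 was called in 5 untreated libraries (median 5.67) and in the digested one labelled siDDX1 (4.16). Among the genes the study followed, Ints6, an Integrator subunit, was called in 9 untreated libraries (median 14.1) and in the digested ones labelled siScramble and siDDX1 (9.63 and 5.54). Ddx1 was called in 9 untreated libraries (median 7.34), as was Celf4, an RNA-binding protein gene (median 7.99), and neither in a digested one.

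In merged regions, 2059 of the 69356 regions of any untreated list (2.97%) were called in at least 1 digested list. Among the 7461 regions of 9 of 9 untreated lists the share was 468, or 6.27%. By class it was 5.59% at protein-coding starts (168 of 3004), 5.14% at ends, 5.36% in exons, 7.73% in introns and 18.1% in intergenic regions (66 of 364). The shares at starts, ends and exons lay close to the 6.27% of the whole. Of the 10 highest of the 6993 regions lost in 3 of 3 digested libraries, 8 are described, and these included ribosomal protein, ubiquitin and chaperone genes. The region of Atf4, a stress response transcription factor, and Rps19bp1 (chr15:80084731-80095696) had a fold of 59.4 to 93.5 in the untreated libraries, with a median of 73.0. Ubb, a polyubiquitin gene, ranged from 42.8 to 69.2 (median 53.2). Jund, an AP-1 transcription factor gene (chr8:73222046-73227061), ranged from 44.9 to 87.0 (median 67.4). The medians were 62.8 at the ribosomal protein gene Rpl30, 56.9 at Ddx5, 52.6 at Ywhaz, a 14-3-3 protein gene, 61.5 at Slc7a5, an amino acid transporter gene, and 46.6 at the chaperone gene Hsp90ab1. These regions were chosen for being lost, so the values describe them and are not tested.

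Wide peaks were nearly absent after the digest. The median width was 518, 563 and 553 bases in the untreated libraries labelled siScramble and 416 in the digested one. It was 579, 494 and 506 against 388 in siDDX1, and 543, 532 and 479 against 404 in siEXOSC3, so the digested library was the lowest of each group. The mean log2 difference was −0.39 (exact permutation p = 0.015625, adjusted p = 0.0215). It was −2.57 with 3811 peaks per list, −0.86 with peaks joined over 1000 bases and −0.67 at a −log10 q of at least 5. Among peaks of at least 10 times the background it was −0.31 and its call ended (exact permutation p = 0.203). That limit falls at unlike places in the digested and untreated lists. Peaks of at least 2000 bases numbered 2647, 4834 and 5261 against 82 in siScramble, 5977, 2386 and 3168 against 43 in siDDX1, and 3494, 3587 and 4597 against 48 in siEXOSC3. Their share went from 11.9% ± 1.55 (SD, n = 9) to 1.13% ± 0.12 (SD, n = 3), with exact permutation p = 0.015625 and adjusted p = 0.0215. The mean difference of −10.8 points was −62.9 with 3811 peaks per list, −24.8 with peaks joined and −17.5 at a −log10 q of at least 5. The ratio of untreated to digested peak numbers grew with width. Peaks under 300 bases were 3.73 times fewer, those from 300 to under 500 bases 5.61 times, to under 1000 bases 6.38 times, to under 2000 bases 11.7 times, to under 5000 bases 58.6 times and of 5000 bases or more 180 times, each with exact permutation p and adjusted p = 0.015625. The widest digested peaks were 5834, 5830 and 6576 bases, and the widest untreated ones 16177 to 23761. Of peaks under 300 bases 1.48% ± 0.35 were kept, of those from 2000 to under 5000 bases 2.02% ± 0.67 and of those of 5000 bases or more 6.26% ± 1.91 (SD, n = 9 each), while 34.4%, 98.5% and 99.98% were shared between untreated libraries. A wide peak counts as kept even where a single narrow digested peak lies in it. The kept share of peaks of at least 2000 bases minus that of peaks under 500 bases was 1.19 percentage points, and 54.0 points when the RNase H mark was moved to an untreated library (exact permutation p = 0.015625, adjusted p = 0.0215). The sign of the first value is not settled, since it was −11.1 points with 3811 peaks per list, −0.28 at a −log10 q of at least 5 and −0.27 with peaks of at least 10 times the background.

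**Figure D3:**
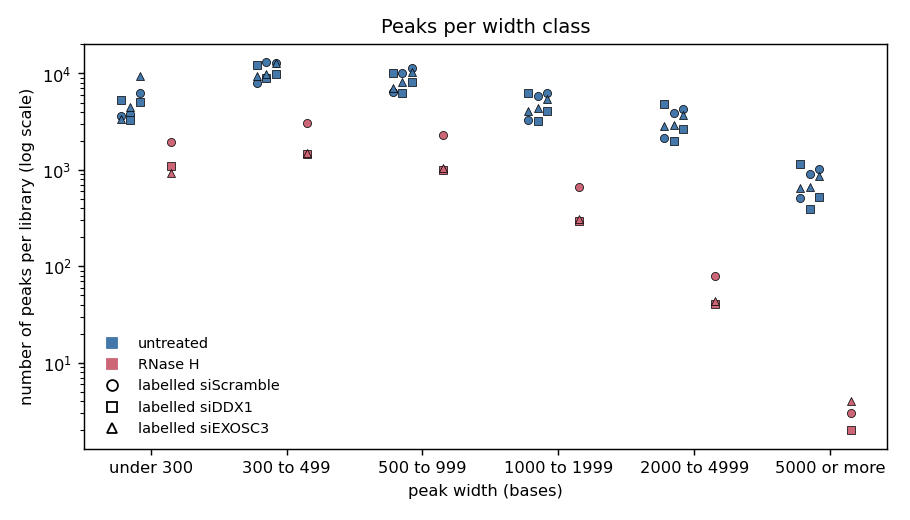
Number of peaks per library (log scale) by peak width in bases. Each symbol is 1 library, blue for the 9 untreated and red for the 3 RNase H digested, and its shape gives the siRNA label. The gap widens from 3.73-fold under 300 bases to 180-fold at 5000 bases or more.

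Fold levels of the peaks that were called overlapped between digested and untreated lists. Fold enrichment is the MACS2 value at the summit, reads over local background with 1 added to each. The median fold was 5.86, 5.57 and 5.42 against 5.40 in siScramble, 5.24, 5.53 and 5.83 against 5.54 in siDDX1, and 5.59, 5.50 and 6.41 against 6.03 in siEXOSC3. The digested value lay within the untreated ones in siDDX1 and siEXOSC3 and just under them in siScramble, and the mean log2 difference was −0.0011 (exact permutation p = 1). Peaks of at least 20-fold made up 1.81% ± 0.74 of untreated (SD, n = 9) and 2.11% ± 0.72 of digested lists (SD, n = 3). The comparison moved in opposite directions under other settings. With 3811 peaks per list the median fold was lower in digested lists by −1.03 on the log2 scale, and with peaks of at least 10 times the background it was higher by 0.17 (exact permutation p = 0.015625 and 0.03125). The 3811 peaks are every peak of the digested list labelled siEXOSC3 but only the lowest q-values of each untreated list. The value of −1.03 thus compares unlike selections. So does the value of 0.17. The median ratio of summit reads to background was 8.78, 10.3 and 11.6 in the digested lists labelled siScramble, siDDX1 and siEXOSC3. It was 13.7 to 18.1 in the untreated lists, except for 9.29 in siDDX1 replicate 1. A limit of 10 times the background thus falls at unlike places in the lists. The ratio of summit reads to background without the added 1 had a median of 14.4 ± 2.37 (SD, n = 9) and 10.2 ± 1.39 (SD, n = 3), and its log2 difference was −0.49 (exact permutation p = 0.03125, adjusted p = 0.03125 over 5 added measures), or −1.58 with 3811 peaks per list.

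Strong untreated peaks were kept more often than weak ones, and most strong ones were not kept. With each list split into 10 equal steps of fold, the kept share was between 1.29% and 2.04% in the lower 9 steps and 4.65% ± 1.46 in the highest (SD, n = 9). Between untreated libraries it went from 35.0% in the lowest step to 98.5% in the highest. Kept peaks had a median fold of 6.41 and lost ones 5.66, averaged over 9 libraries, and a 95th percentile of 29.9 against 13.2. The kept minus lost log2 difference was 0.18 with the digested library and 0.34 with the RNase H mark moved to an untreated one (exact permutation p = 0.03125, adjusted p = 0.0382). It lost its call without siDDX1 replicate 2 (p = 0.0625), siDDX1 replicate 3 (p = 0.0625) or siEXOSC3 replicate 2 (p = 0.0833), and with equal numbers of peaks (p = 0.25), by the same exact permutation test.

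Seen from the digest, most peaks were not those of untreated DNA. Of the digested peaks 14.1%, 22.7% and 24.9% overlapped any untreated peak of their group in siScramble, siDDX1 and siEXOSC3. Start peaks did so in 43.3%, 47.8% and 56.1% of cases, and intergenic ones in 8.14%, 17.4% and 19.2%. Of 10448 merged regions with a digested peak, 8389 (80.3%) were in no untreated list. Digested lists also differed among themselves, since 7122 of these regions were called in 1 digested list, 1909 in 2 and 1417 in 3. Of the 1417, 116 were called in 9 of 9 untreated lists and 707 in 0 of 9.

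The 116 regions called in 12 of 12 lists comprised 31 intergenic, 26 intronic, 25 protein-coding start, 18 exonic, 14 protein-coding end and 2 long noncoding start regions. In 32 of them (27.6%) the local background exceeded 2 times that of the list, which was so in 5.43% of the lost regions. The summit sequence occurred more than once in the genome in 21 (18.1%) of them, against 4.33% of the lost ones. Both features were read from a digested list in the 116 regions and from an untreated list in the lost ones, so list type enters these contrasts. In whole lists, repeated summits made up 10.8% of digested and 4.86% of untreated peaks. Backgrounds over 2 times made up 6.81% and 7.25%. At the summits of the 116 regions, reads over background had a median log2 difference, digested minus untreated, of −0.28, with 73 regions lower and 43 higher. It was −1.15 at protein-coding starts and −0.98 at ends, and 0.30 in introns and 0.37 in intergenic regions. At the first region, over Zc3h7a, a zinc finger protein gene, and mmu-mir-689-2 (chr16:11143982-11144409), the fold was 38.7 to 71.9 in the untreated libraries (median 55.0) and 116, 156 and 190 in the digested ones. All 3 digested values lay above all untreated ones. The summit sequence had 3 genome copies and the local background was 13.9 times that of the list. Filip1l (chr16:57391238-57391818) had 56.0 to 137 untreated and 74.9, 103 and 126 digested, with overlap, and a background of 15.4 times. Zfp949 (chr9:88452977-88453923) had 15.2 to 38.4 untreated and 85.2, 81.4 and 76.4 digested, without overlap, and a background of 1.00 times. The region 3.92 kb from Col6a3 (chr1:92657891-92659513) had 20.5 to 75.8 untreated and 46.8, 91.8 and 131 digested, with overlap. Cdk8, a Mediator kinase gene (chr5:147072554-147072940), had 51.3 to 140 untreated and 46.7, 62.2 and 81.1 digested, with overlap and a background of 11.3 times. Gene names give only the position of these regions. The source of the reads at regions of high local background was not tested.

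The 707 regions of 3 of 3 digested and 0 of 9 untreated lists were 401 intergenic (56.7%), 222 intronic (31.4%) and 22 at protein-coding starts. Their median width was 776 bases and their median GC content 42.0%, against 3580 bases and 49.0% in lost regions. A region is the union of its peaks, from 9 lists in lost regions and from 3 in these, so the 2 widths are not like measures. The highest lay in an intron of Fam38b, with folds of 23.5, 25.4 and 29.2 in siScramble, siDDX1 and siEXOSC3. The region 79.1 kb from Gata6 had 26.6, 23.1 and 20.7, and the one 175 kb from Cdh5 (chr8:106449936-106450444) had 23.4, 19.2 and 24.4. The region in 2410003K15Rik (chr6:49031396-49032236) had 33.1, 24.04 and 17.6. Their level was thus below that of the leading kept and lost regions. Being chosen by their calls, these regions carry no test.

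**Figure D4:**
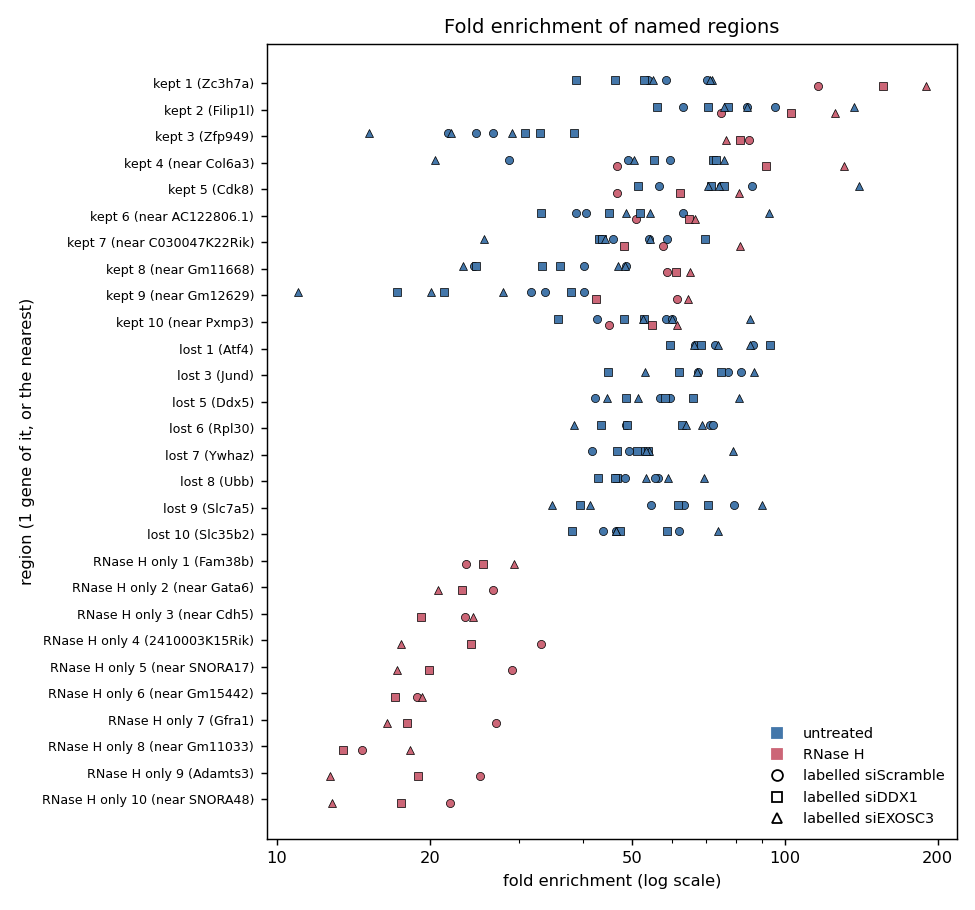
Fold enrichment (log scale) of the 10 leading regions called in all 12 lists (kept), 8 of the 10 leading ones in the 9 untreated lists only (lost) and the 10 leading ones in the 3 RNase H lists only. Each symbol is 1 library, blue for untreated and red for digested, and its shape gives the siRNA label. At Zfp949 the digested values of 76.4 to 85.2 lie above the untreated range of 15.2 to 38.4.

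Digested peaks lay on shorter restriction fragments and often spanned one from end to end. The median fragment under the summit was 1982 to 2290 bases in untreated libraries and 1057, 1161 and 1226 in digested ones, a mean log2 difference of −0.90 (exact permutation p = 0.015625, adjusted p = 0.0195). Peaks on fragments under 500 bases went from 3.44% to 14.7% of the list and those on 500 to under 1000 bases from 9.34% to 28.4%. Peaks on fragments of 2000 to under 4000 bases went from 42.9% to 19.2% (exact permutation p = 0.015625, adjusted p = 0.0195 for each of these 3). In number, peaks were 1.54 times fewer on fragments under 500 bases, which did not pass (exact permutation p = 0.0938), and 15.6 times fewer on those of 4000 bases or more (p = 0.015625, adjusted p = 0.0260). A peak was said to cover a whole fragment if both its ends lay within 50 bases of the fragment's ends. Such peaks made up 3.94%, 5.58% and 4.67% against 19.1% in siScramble, 6.17%, 4.08% and 4.57% against 17.1% in siDDX1, and 6.18%, 4.97% and 5.01% against 20.4% in siEXOSC3. The digested share was the highest in each group (exact permutation p = 0.015625, adjusted p = 0.0195). With 3811 peaks per list, the difference was 15.1 percentage points in siScramble, −1.95 in siDDX1 and −2.61 in siEXOSC3, and the mean of 3.52 did not pass (exact permutation p = 0.328). Among peaks of at least 10-fold, the share was 20.8% ± 3.31 untreated (SD, n = 9) and 58.2% ± 2.26 digested (SD, n = 3), with exact permutation p and adjusted p = 0.015625. The direction turned with fragment length. Digested peaks covered the whole fragment in 43.4% and untreated ones in 11.6% of cases on fragments under 500 bases, but in 0.694% and 5.05% on those of 4000 bases or more (exact permutation test, p = 0.015625 in each class, adjusted p = 0.015625). The regions at Zfp949 and Col6a3 covered a whole fragment, of 943 and 1609 bases, in 12 of 12 lists. The one 175 kb from Cdh5 covered a fragment of 505 bases in 3 of 3 digested lists.

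**Figure D5:**
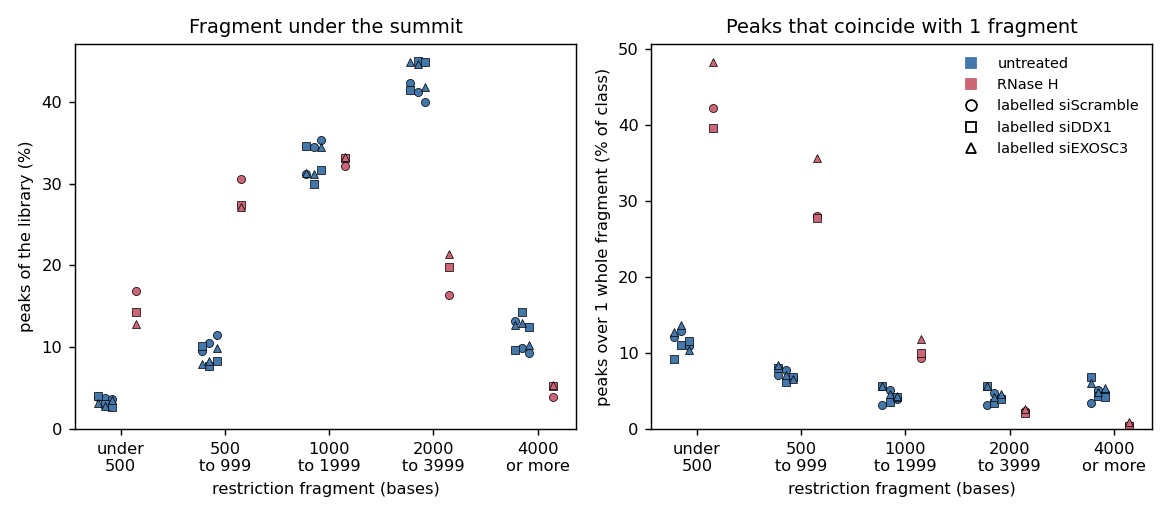
Left, percent of a library's peaks by length of the restriction fragment under the summit in bases. Right, percent of the peaks of each length class that cover 1 whole fragment. Each symbol is 1 library, blue for the 9 untreated and red for the 3 RNase H digested, and its shape gives the siRNA label. On fragments under 500 bases 43.4% of digested and 11.6% of untreated peaks cover the whole fragment.

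The sequence under the summits also differed. Summits in tandem repeats, here runs of at least 24 bases with a unit of up to 6 bases, rose from 3.73% ± 0.20 (SD, n = 9) to 7.01% ± 0.45 (SD, n = 3), with exact permutation p = 0.015625 and adjusted p = 0.0215. Runs of AAG rose from 0.0449% to 0.453% of summits and runs of AGG from 0.0430% to 0.256% (exact permutation p = 0.015625, adjusted p = 0.0195 over 15 units), while runs of AC, the most frequent, went from 1.44% to 1.65% without passing (exact permutation p = 0.0625). Summits whose sequence of 31 bases occurred more than once in the genome rose from 4.86% ± 0.23 (SD, n = 9) to 10.8% ± 0.73 (SD, n = 3), and the strand skew, the absolute difference of G and C over their sum in 300 bases, rose from a mean of 11.3% ± 0.13 (SD, n = 9) to 14.6% ± 0.21 (SD, n = 3). Both had exact permutation p = 0.015625 and adjusted p = 0.0195. GC content around the summit was 48.7% ± 0.64 (SD, n = 9) and 43.9% ± 0.32 (SD, n = 3), without overlap. Peaks on chromosome 7 went from 6.13% to 2.74% of the list and those on chromosome 1 from 5.84% to 9.09% (exact permutation p = 0.015625, adjusted p = 0.0205 over 21 chromosomes). Chromosome 15 went from 6.18% to 9.53%, with the same p, but with 3811 peaks per list its difference was 0.47 percentage points (exact permutation p = 0.219).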

How the data were processed

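DRIP-seq libraries of N2a cells were represented by 12 peak lists in mm9 coordinates. The authors aligned reads with Bowtie2 2.4.4 and called peaks for each library separately against the input with MACS2 2.2.6, and the lists hold no pooled replicates. Per the labels and the values, the deposited columns used were the fold enrichment (a ratio), the −log10 p-value and the −log10 q-value, whose lowest value was 2.00. The input sample was not analysed here. The numbers of reads are not in the lists, so depth limits precision to an unknown degree. Summit reads and local background were recovered from the fold and the p-value (tolerance 0.005 in −log10 p) for at least 99.99% of peaks of each list.

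Peaks were classed with GENCODE annotation and fragments cut in silico on NCBIM37. Libraries were grouped by title. Differences were tested with a two-sided exact permutation test over 64 placements of the RNase H mark within groups, with Benjamini-Hochberg adjustment within each family of tests. Scripts were tested on simulated data. Named regions were the 10 highest by mean fold percentile of those called in 9 of 9 untreated and 3 of 3 digested lists, in 9 of 9 and 0 of 3, and in 0 of 9 and 3 of 3, plus genes of short lists. Some of these items are not reported here. Members and gene lists were chosen with earlier results of these data known. Alternatives were a −log10 q of at least 5, joining of peaks up to 1000 bases apart, equal numbers of peaks, leaving out chromosomes 8 and 15 and the sex chromosomes, other overlap, width, start and repeat limits, and leaving out each library. Peaks with a unique summit or at least 10 times the background, and the measures of fragments, repeated summits, skew and reads over background, were added after seeing the data. Python 3.11.15, numpy 2.4.6, pandas 2.3.3, scipy 1.17.1, numba 0.67.0 and matplotlib 3.10.9 were used.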

Additional observations from a re-analysis of the deposited data

Results flagged for a closer look

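The number of intergenic peaks moved in opposite directions in different groups. The digested library labelled siScramble held 4409 intergenic peaks, above its 3 untreated libraries (2156, 3384 and 3787). The digested library labelled siEXOSC3 held 1965, below its 3 untreated libraries (2564, 3167 and 3821). The difference between the groups was not tested. The digested library labelled siScramble also had the largest list of the 3 digested ones, 8034 peaks against 3918 and 3811, and the highest background, 1.59 reads against 1.17 and 1.12. The part of either in the number of intergenic peaks was not tested.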

How the results depend on the processing

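Several values moved with the number of peaks used, and the cause was not tested. The equal number of 3811 took all peaks of the digested list labelled siEXOSC3 but only the lowest q-values of each untreated list. With 3811 peaks per list the log2 median width difference was −2.57, that of the share of peaks of 2000 bases or more −62.9 points, that of the start share −37.2 points and wide minus narrow −11.1 points, each with exact permutation p = 0.015625. With equal numbers of peaks the difference, digested minus untreated on the log2 scale, was −1.03 for the median fold and −0.97 for its 95th percentile (exact permutation p = 0.015625 for both), and the kept minus lost difference was 0.24 (p = 0.25). With peaks joined over 1000 bases the 95th percentile difference was −0.12. On autosomes without chromosomes 8 and 15 the median fold difference was 0.011. A limit of 10 times the background falls at unlike places in the digested and untreated lists. With peaks above it, an alternative added after seeing the data, the exact permutation test gave other calls. There the median fold difference was 0.17 (exact permutation p = 0.03125), that of the 95th percentile 0.27 (p = 0.046875), that of the median width −0.31 (p = 0.203) and that of the small structural RNA share −0.18 percentage points (p = 0.125). The whole fragment share with equal numbers of peaks was 3.52 points higher (exact permutation p = 0.328), and 13 of 24 gene classes were called in place of 18.

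Leaving out each library in turn gave −0.41 to −0.37 for the log2 median width, −11.1 to −10.2 points for the share of peaks of 2000 bases or more, −16.7 to −15.7 points for the start share and −0.33 to −0.19 points for the small structural RNA share. The log2 median fold difference was −0.027 to 0.027 and that of the 95th percentile −0.051 to 0.061, so their signs are not settled. It was 1.75% to 2.09% for the kept share, 0.16 to 0.21 for the kept minus lost log2 fold, 0.82 to 1.49 points for wide minus narrow, −6.41 to −5.60 points for starts minus intergenic and 3.09 to 3.44 points for tandem repeats. Without a whole group the smallest possible p is 0.0625, so no call can be made there. Without siDDX1 replicate 2 the log2 difference of reads over background was −0.46 (exact permutation p = 0.0833). No paired analysis was possible because the digested libraries carry no replicate number. The planned share of summits in soft-masked sequence was not run, since the genome used here carries no soft mask.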

Other observations

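Peaks on the mitochondrial genome were few and alike, with 2 in each of the 9 untreated libraries and 3, 3 and 2 in the digested libraries labelled siScramble, siDDX1 and siEXOSC3. Of 8 marker genes of other lineages, 1 held a peak in a digested library, Myh6, a heart muscle myosin gene, at a fold of 4.62.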
